A study of Homo sapiens with 6 samples.

Results

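The transcripts described here are 29 genes of the p53 pathway, a list of p53 targets and regulators, measured in SK-Hep1 cells after blockade of the microRNA miR-21. All probe sets annotated to 1 of these genes alone were taken, which gave 66 of the 54675 probe sets on the array and 27 of the 29 genes. BTG2, an antiproliferative cofactor, and FDXR, the mitochondrial ferredoxin reductase, have no expression values analysed here. A probe set was tested where its mean over all arrays reached a log2 value of 4, and 53 of the 66 did. The other 13 were dim probe sets of genes that also had a brighter one, so each of the 27 genes was tested.

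SK-Hep1 is an established human cell line derived from a liver adenocarcinoma. The 3 anti-miR-21 samples were cells given 20 nM of an anti-miR-21 oligonucleotide by lipid transfection, and the 3 mock samples were transfected without it (PBS). Cells had been plated 24 hours before transfection and were collected 16 hours after it. RNA of each sample was hybridised to 1 single-colour array, and the values are log2 expression on the GCRMA scale of the authors. No group received a control oligonucleotide, so a response to any oligonucleotide and a response to loss of miR-21 cannot be told apart. The labels call the RNA total, but the collection protocol cites an Argonaute immunoprecipitation, so it is not settled here which RNA fraction the arrays measured.

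The arrays resembled one another, with correlations over tested probe sets of 0.99625 to 0.99828 within groups and 0.99387 to 0.99729 between groups. On the first principal component, which held 50.4% of the variance, anti-miR-21 replicates 2 and 3 had scores of 20.11 and 19.63, whereas replicate 1 of that group scored 3.51, against -19.95 to -7.25 for the mock arrays. Anti-miR-21 replicate 1 thus stood nearer to the mock arrays, and some of the results that rest on this are given with and without it. Among the mock arrays, replicate 1 had the score of -7.25 and stood nearest to the anti-miR-21 arrays. Of 9 hepatocyte markers, 3 reached the filter (SERPINA1, AFP and TF), whereas ALB, TTR, APOA1 and APOB did not. All 6 mesenchymal markers reached it, as did 2 of 7 endothelial ones (TEK and CLDN5), with PECAM1, CDH5, KDR and VWF below it. Of 5 epithelial markers 4 reached it, with CDH1 below it, and KRT18, KRT8 and KRT19 were bright (mock means 15.15, 14.65 and 14.29). AFP, TF, TEK and CLDN5 lay near the limit of 4 (mock means 4.28, 4.01, 4.64 and 4.10), whereas SERPINA1 was at 11.87. None of 3 blood cell markers did, and none of the markers of any of these types or of epithelial cells passed the test between groups.

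The tumour suppressor p53 is a transcription factor that is stabilised by DNA damage and other stresses. It binds pairs of decamer sites near its target genes and induces inhibitors of the cell cycle, DNA repair factors, metabolic enzymes and mediators of cell death. It also induces its own antagonists, such as the ubiquitin ligase MDM2, which closes a negative feedback loop. Several components and cofactors of the pathway have been described as miR-21 targets in tumour cells. The arrays measure transcripts and not p53 protein or mature miR-21.

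The mature miR-21 that the oligonucleotide is directed against is shown first, from RefSeq (GRCh38.p14, chr17:59841273-59841294, plus strand), with its seed, bases 2 to 8, in capitals.
hsa-miR-21-5p: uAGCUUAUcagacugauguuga

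Promoters of the genes were then searched for the p53 consensus, a pair of adjoining decamers of 20 bases in all. RefSeq promoter windows of 300 bases (250 before to 50 after the gene start) were at hand for 25 of the 29 genes. A match kept the C and the G at the core of both decamers and had at most 3 mismatches, and because the consensus is its own reverse complement, 1 search covers both strands. Such a match lay in 3 of the 25 windows (12%), those of AEN, RPS27L and FDXR, and in 1.05% of 27305 windows of all genes. With at most 4 mismatches the counts were 5 of 25 (20%) and 4.04%. The limits on mismatches were chosen with the matches in view, and a match is a description of the letters only. Sites outside the windows, or with bases between the decamers, were not searched for. A window without a match thus does not show that the gene lacks a site. The 2 windows of measured genes are printed because they bear the closest matches, in capitals. The first is GRCh38.p14 chr15:88621286-88621345 on the plus strand, with 2 mismatches and a match that begins at position -34 from the gene start. The second is chr15:63157507-63157566 on the minus strand, with 3 mismatches and a match that begins at position -69.
AEN: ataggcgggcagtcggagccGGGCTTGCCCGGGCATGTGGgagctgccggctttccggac
RPS27L: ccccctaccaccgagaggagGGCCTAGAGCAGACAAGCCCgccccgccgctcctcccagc

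The question was whether the p53 programme differed between cells given anti-miR-21 and mock-treated cells. No gene of the set passed the test in either direction. The test was limma on all 22408 kept probe sets (Benjamini-Hochberg adjusted p under 0.05), with each gene represented by its brightest probe set, and 0 of 27 genes and 0 of 53 probe sets were called. In the same fit 2.13% of 10848 genes passed, 0.913% with higher and 1.22% with lower values. At so small a share, no call among 27 genes says little about the set. Of all probe sets 2.17% passed, 1.1% higher and 1.07% lower. At an unadjusted p under 0.05 there were 6 of 27 genes (22.2%), 4 with higher and 2 with lower values in anti-miR-21 cells, against 18.1% of all genes (6.84% higher and 11.3% lower). Anti-miR-21 and mock arrays did not overlap in 7 of 27 genes (25.9%), against 25.5% of all genes, with 4 higher and 3 lower, against 10.4% and 15.1%. Without regard to direction, the shares of 22.2% and 25.9% were near those of all genes. By direction they differed, as more of the 27 genes were higher than lower by each measure, whereas more of all genes were lower. The counts by direction are small, and this difference was not tested.

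The fold changes of the 27 genes ran from -0.29 to 0.42 on the log2 scale (anti-miR-21 minus mock). The change was positive for 13 genes and negative for 14, against 43.3% positive over all genes. The median log2 fold change was -0.003, against -0.018 over all genes tested. The 95% confidence intervals of the fit, not adjusted for the number of genes, were taken for the brightest probe set of each gene. They lay within a 1.5-fold change in either direction for 26 of the 27 genes. The exception was GADD45A. For 16 of the 27 the interval lay within a 1.25-fold change. Dimmer probe sets of MDM4 reached beyond 1.5-fold (0.585 on the log2 scale), with intervals of 0.15 to 0.84 and -0.11 to 0.91. So did a dimmer probe set of RPS27L, at -0.38 to 0.65.

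**Figure D1:**
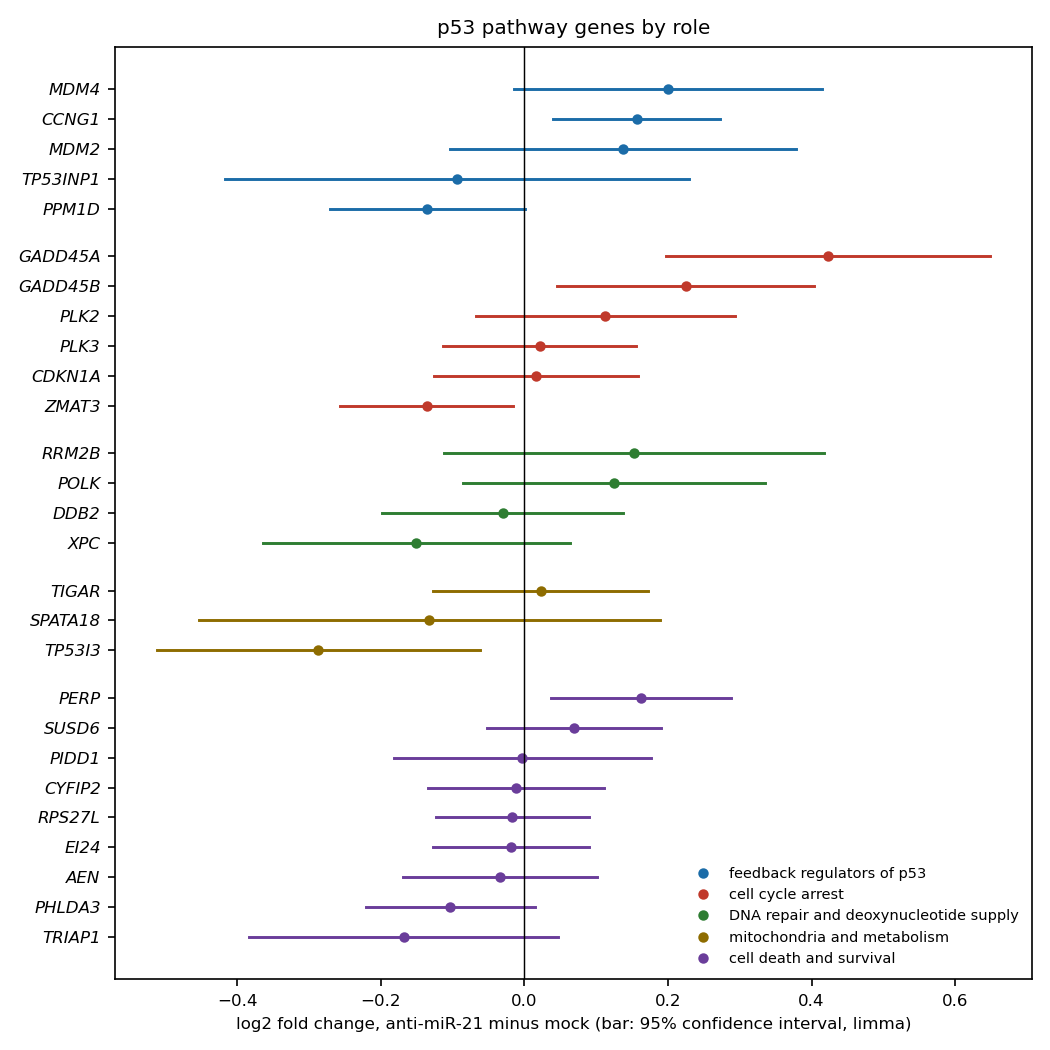
Log2 fold change (anti-miR-21 minus mock) of the representative probe set of each of 27 p53 pathway genes, grouped by role, with 95% confidence intervals from limma as bars. The intervals of 6 genes do not include 0 before adjustment, and only that of GADD45A extends beyond 0.585 (1.5-fold).

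The feedback regulators of p53 split around 0, with 3 of 5 positive, 2 negative and none called. MDM2, the ubiquitin ligase that marks p53 for degradation and is itself a p53 target, had 12.62, 12.67 and 12.65 across the anti-miR-21 arrays and 12.73, 12.47 and 12.33 across the mock arrays. Mock replicate 1 was the highest of all 6 arrays, so the groups overlapped. The log2 fold change was 0.14 ± 0.10 (SE, n = 3 each, adjusted p by limma = 0.526), with a 95% interval of -0.10 to 0.38. It was 0.25 without mock replicate 1 and 0.05 without mock replicate 3. Its 8 tested probe sets ranged from -0.03 to 0.25, 7 of them positive, and the lowest adjusted p among them was 0.371 (limma).

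MDM4, a relative of MDM2 that binds p53 and blocks its transcriptional activity, was higher in anti-miR-21 cells in all 5 of its tested probe sets, with log2 fold changes of 0.19 to 0.49, but none passed (lowest adjusted p by limma = 0.0985). The brightest probe set had 10.72, 10.91 and 11.07 across the anti-miR-21 arrays and 10.72, 10.68 and 10.70 across the mock arrays. Anti-miR-21 replicate 1 lay at the mock level and replicates 2 and 3 above it. Its log2 fold change was 0.20 ± 0.09 (SE, n = 3 each, adjusted p by limma = 0.309).

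Replicate 1 was also the lowest anti-miR-21 array in other probe sets of MDM4. One with a mean of 7.70 over all arrays had 7.37, 8.17 and 8.15 across the anti-miR-21 arrays against 7.59, 7.55 and 7.34 across the mock arrays. Another, with a mean of 7.81, had 7.75, 8.07 and 8.35 against 7.58, 7.65 and 7.48 in mock, and here the groups did not overlap. Without anti-miR-21 replicate 1, 3 of the 5 passed, at log2 fold changes of 0.67, 0.64 and 0.37 (adjusted p by limma = 0.0297, 0.0428 and 0.0426). The brightest probe set was at 0.29 (adjusted p by limma = 0.0988) in that fit. The call of these probe sets therefore turns on 1 array, and the call of the gene by its representative was absent with and without it.

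CCNG1, which encodes cyclin G1, a p53 target that recruits a phosphatase to MDM2, had 14.23, 14.23 and 14.17 across the anti-miR-21 arrays and 14.07, 14.08 and 14.01 across the mock arrays. The groups did not overlap and the spread within each was small (SD 0.033 and 0.037), yet the log2 fold change was 0.16 ± 0.05 (SE, n = 3 each, adjusted p by limma = 0.168). PPM1D, the phosphatase that removes activating phosphates from p53, lay the other way. It had 10.23, 10.22 and 10.15 across the anti-miR-21 arrays and 10.29, 10.41 and 10.29 across the mock arrays, also without overlap (log2 fold change -0.14 ± 0.06 SE, adjusted p by limma = 0.284). A dimmer probe set of PPM1D was at -0.04. TP53INP1, which promotes phosphorylation of p53, ran from 7.51 to 7.83 in anti-miR-21 and from 7.57 to 8.04 in mock cells (log2 fold change -0.09 ± 0.14 SE, adjusted p by limma = 0.763).

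**Figure D2:**
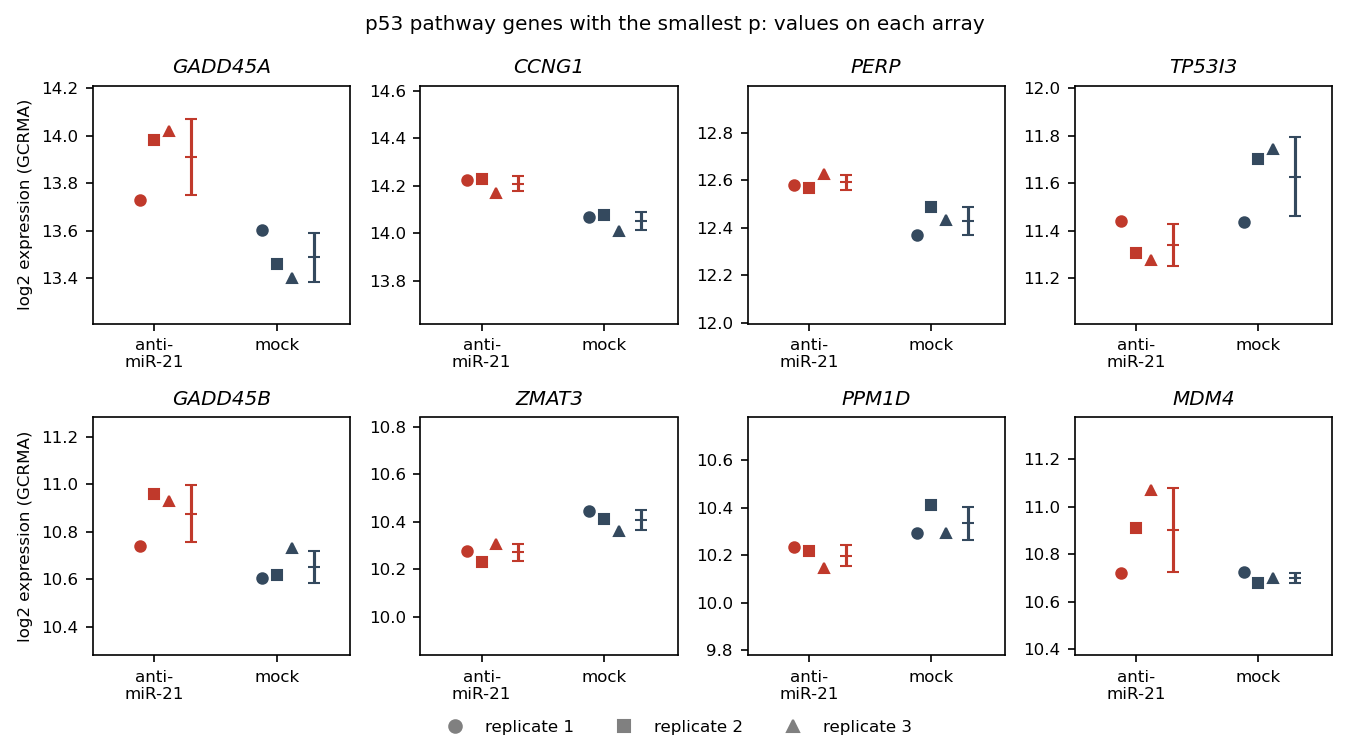
Log2 expression on each of the 6 arrays for the 8 p53 pathway genes with the smallest p (representative probe set), with replicates as symbols and mean ± SD (n = 3) beside them. Every panel spans 1 log2 unit. Anti-miR-21 replicate 1 is the lowest of its group for GADD45A, GADD45B and MDM4, and groups overlap for TP53I3 and MDM4.

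Among genes of cell cycle arrest, the central effector showed a fold change near 0. CDKN1A, which encodes the cyclin-dependent kinase inhibitor p21, had 12.31, 12.38 and 12.41 across the anti-miR-21 arrays and 12.28, 12.34 and 12.43 across the mock arrays. The anti-miR-21 arrays lay within the range of the mock arrays, with a log2 fold change of 0.02 ± 0.06 (SE, n = 3 each, adjusted p by limma = 0.912) and a 95% interval of -0.13 to 0.16. The transcript was well above the filter in both groups, so a low signal does not limit this comparison.

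GADD45A, a stress-induced protein that binds PCNA and activates a kinase upstream of p38 and JNK, had the highest fold change and the smallest p of the set. It had 13.73, 13.98 and 14.02 across the anti-miR-21 arrays and 13.60, 13.46 and 13.40 across the mock arrays. All anti-miR-21 arrays were above all mock arrays, replicate 1 by the narrowest margin. The log2 fold change was 0.42 ± 0.09 (SE, n = 3 each, 1.34-fold, adjusted p by limma = 0.0845), with a 95% interval of 0.20 to 0.65. It passed in 1 of 13 alternative analyses, that without anti-miR-21 replicate 1 (0.51, adjusted p by limma = 0.0374), and the adjusted p ranged up to 0.264 in the others.

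GADD45B, its paralogue, which is also known as a target of NF-κB and TGF-β signalling, also had its lowest anti-miR-21 value in replicate 1. Its brightest probe set had 10.74, 10.96 and 10.93 across the anti-miR-21 arrays and 10.60, 10.62 and 10.73 across the mock arrays, with the lowest anti-miR-21 array just above the highest mock array. The log2 fold change was 0.22 ± 0.08 (SE, n = 3 each, adjusted p by limma = 0.194). The other tested probe sets were at 0.23 and 0.27, with overlapping groups. Without anti-miR-21 replicate 1 the dimmest of the 3 passed at 0.39 (adjusted p by limma = 0.0494) and the brightest did not (0.29, adjusted p by limma = 0.0854).

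ZMAT3, a zinc finger RNA-binding protein induced by p53, was lower in anti-miR-21 cells in all 5 of its tested probe sets, at log2 fold changes of -0.23 to -0.03, and none passed (lowest adjusted p by limma = 0.166). The brightest had 10.28, 10.23 and 10.31 across the anti-miR-21 arrays and 10.45, 10.41 and 10.36 across the mock arrays. Groups did not overlap in 3 of the 5. Its log2 fold change was -0.14 ± 0.05 (SE, n = 3 each, adjusted p by limma = 0.229), and leaving out anti-miR-21 replicate 1 left it at -0.14. The stress-responsive polo-like kinases PLK2 and PLK3 showed log2 fold changes of 0.11 ± 0.08 and 0.02 ± 0.06 (SE, adjusted p by limma = 0.488 and 0.875). For PLK2 mock replicate 1, at 14.84, lay among the anti-miR-21 values of 14.74 to 14.87, above the other mock arrays at 14.67 and 14.61.

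**Figure D3:**
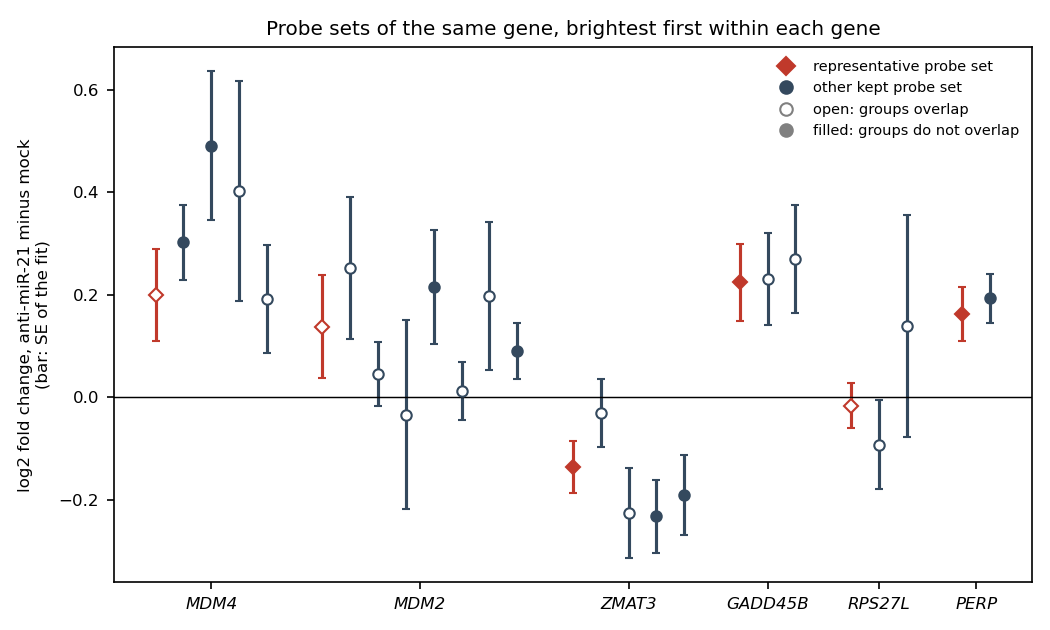
Log2 fold change (anti-miR-21 minus mock) with its SE for each tested probe set of 6 genes that have several, from the brightest to the dimmest within a gene. All 5 probe sets of MDM4 and all 3 of GADD45B are above 0 and all 5 of ZMAT3 below it, whereas those of MDM2 and RPS27L lie on both sides.

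In all, 12 of the 27 genes had more than 1 tested probe set, and in 8 of these 12 the probe sets lay on the same side of 0. Groups did not overlap in 15 of the 53 tested probe sets, against 24% of all probe sets, and 14 had an unadjusted p under 0.05 in limma, against 17.8%. Probe sets of 1 gene share the same RNA samples and are not replicates of the treatment. The representative of 11 genes is of a type whose name marks possible cross-hybridisation or shared transcripts (_s_at, _x_at or _a_at), and 8 genes had such probe sets only.

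Genes of DNA repair and deoxynucleotide supply did not pass, and the groups overlapped in all 4. XPC, which recognises lesions in nucleotide excision repair, ran from 9.39 to 9.64 in anti-miR-21 and from 9.56 to 9.79 in mock cells (log2 fold change -0.15 ± 0.09 SE, adjusted p by limma = 0.434). DDB2, the damage sensor for ultraviolet lesions, had 11.53, 11.39 and 11.37 across the anti-miR-21 arrays and 11.37, 11.47 and 11.54 across the mock arrays, which is nearly the same range (log2 fold change -0.03 ± 0.07 SE, adjusted p by limma = 0.858). POLK, a translesion DNA polymerase, was at 0.13 ± 0.09 and 0.10 ± 0.06 (SE) in its 2 tested probe sets (adjusted p by limma = 0.507 and 0.447). RRM2B, the p53-induced subunit of ribonucleotide reductase, had 10.95, 10.99 and 10.97 across the anti-miR-21 arrays and 10.92, 10.97 and 10.55 across the mock arrays. Its log2 fold change of 0.15 ± 0.11 (SE, adjusted p by limma = 0.522) rested on mock replicate 3, without which it was 0.02.

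Of the mitochondrial and metabolic genes, TP53I3, a quinone oxidoreductase induced during p53-dependent apoptosis, had the lowest fold change of the set. It had 11.44, 11.31 and 11.28 across the anti-miR-21 arrays and 11.44, 11.70 and 11.74 across the mock arrays. Both replicates numbered 1 were at the same level, and the other anti-miR-21 arrays lay below the other mock arrays. The log2 fold change was -0.29 ± 0.09 (SE, n = 3 each, adjusted p by limma = 0.186), with a 95% interval of -0.51 to -0.06. TIGAR, a bisphosphatase that restrains glycolysis, was at 0.02 ± 0.06 (SE, adjusted p by limma = 0.880). SPATA18, a mitochondrial quality control protein also called MIEAP, ran from 6.93 to 7.21 in anti-miR-21 and from 6.90 to 7.34 in mock cells (log2 fold change -0.13 ± 0.13 SE, adjusted p by limma = 0.656).

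Of 9 genes of cell death and survival, 2 had positive and 7 negative log2 fold changes, with a median of -0.02 and none called. PERP, a membrane protein of desmosomes that contributes to p53-dependent apoptosis, had 12.58, 12.57 and 12.62 across the anti-miR-21 arrays and 12.37, 12.49 and 12.43 across the mock arrays. A second probe set had 11.66, 11.65 and 11.65 in anti-miR-21 cells against 11.49, 11.48 and 11.41 in mock cells. Groups did not overlap in either, at log2 fold changes of 0.16 ± 0.05 and 0.19 ± 0.05 (SE, n = 3 each, adjusted p by limma = 0.181 and 0.104). These values were nearly the same without anti-miR-21 replicate 1 (0.17 and 0.19).

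PHLDA3, which competes with AKT for membrane lipids, had 8.89, 8.97 and 8.96 across the anti-miR-21 arrays and 9.03, 9.03 and 9.07 across the mock arrays, without overlap (log2 fold change -0.10 ± 0.05 SE, adjusted p by limma = 0.337). TRIAP1, a small mitochondrial survival factor, had 12.62, 12.48 and 12.50 across the anti-miR-21 arrays and 12.52, 12.77 and 12.82 across the mock arrays. As for TP53I3, mock replicate 1 was below the other mock arrays and within the anti-miR-21 range (log2 fold change -0.17 ± 0.09 SE, adjusted p by limma = 0.389).

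The remaining death and survival genes had fold changes nearer to 0. AEN, a nuclease active in apoptosis, and RPS27L, a ribosomal protein paralogue, whose promoter windows are printed above, showed log2 fold changes of -0.03 ± 0.06 and -0.02 ± 0.04 (SE, adjusted p by limma = 0.797 and 0.878). The brightest RPS27L probe set had 15.48, 15.45 and 15.47 across the anti-miR-21 arrays and 15.50, 15.49 and 15.47 across the mock arrays. The dimmest tested one varied from 9.76 to 10.23 in anti-miR-21 and from 9.40 to 10.19 in mock cells. PIDD1, a scaffold for caspase 2 activation, CYFIP2, a subunit of the WAVE actin complex, and EI24, a membrane protein of the endoplasmic reticulum, showed log2 fold changes of -0.003, -0.01 and -0.02 (adjusted p by limma = 0.988, 0.930 and 0.863). SUSD6, a transmembrane protein induced by p53, was at 0.07 ± 0.05 (SE, adjusted p by limma = 0.524).

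**Figure D4:**
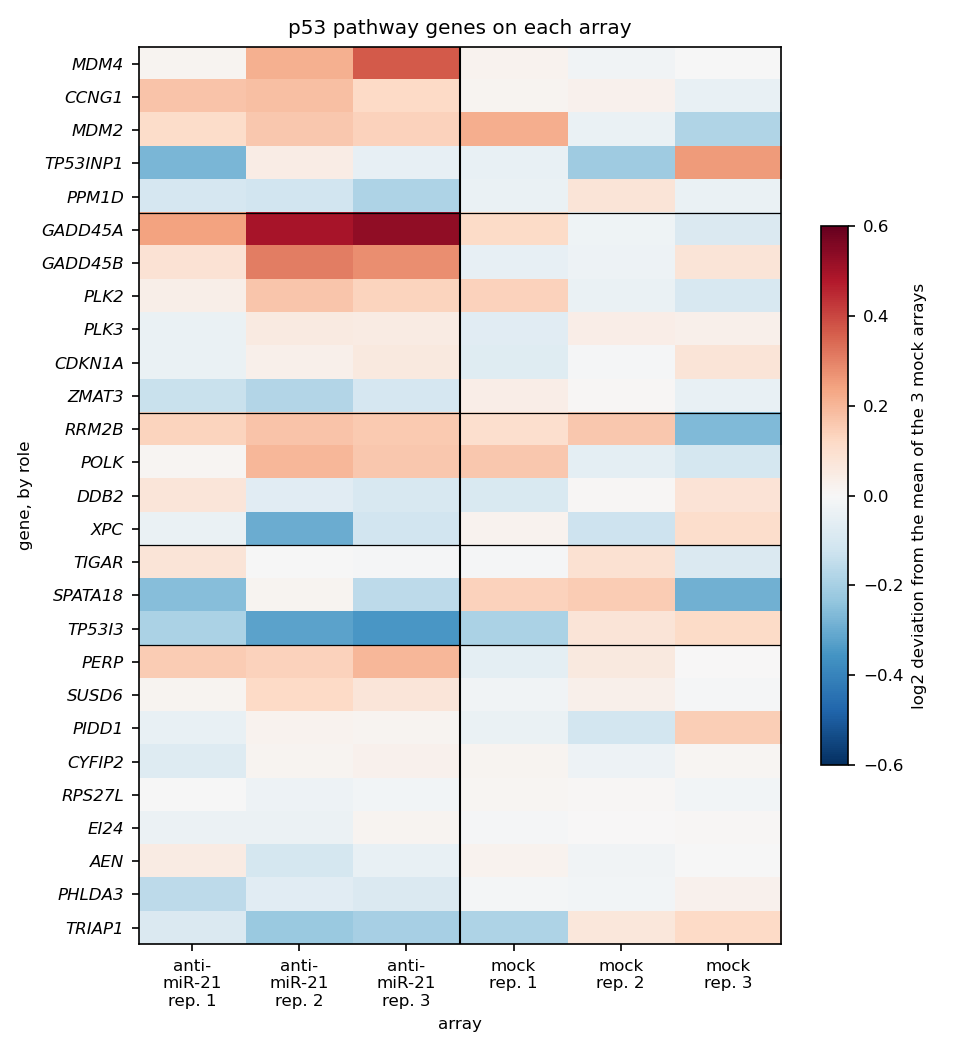
Deviation of each of 27 p53 pathway genes (rows, by role) on each array (columns) from the mean of the 3 mock arrays, in log2 units. GADD45A, GADD45B and MDM4 are higher in anti-miR-21 replicates 2 and 3 than in replicate 1, and no array is shifted as a whole, with medians between -0.006 and 0.020.

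No array showed a shift of the set as a whole. The median deviation of the 27 genes from their mock means was -0.001, 0.020 and 0.016 in anti-miR-21 replicates 1, 2 and 3, and lay between -0.006 and 0.000 across the mock arrays. The number of genes above their mock mean was 13, 16 and 15 across the anti-miR-21 arrays and 13, 14 and 13 across the mock arrays. The mock arrays are their own reference here, so their small medians and middling counts follow in part from that choice.

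Further genes of the pathway were taken from 3 lists. Of 72 other p53 target genes, 65 were tested, of which 3 rose, 1 fell and 61 did not pass, which is 6.15% called against 2.13% of all genes. The median log2 fold change was -0.007. The genes that rose were GDF15, a stress-induced cytokine, at 2.09-fold, ATF3, a stress-induced transcription factor, at 2.09-fold, and TGFA, a ligand of the EGF receptor, at 1.42-fold (adjusted p by limma = 0.0144, 0.0422 and 0.0276). The gene that fell was ANKRA2, an ankyrin repeat protein, with 8.66, 8.69 and 8.80 across the anti-miR-21 arrays against 9.31, 9.19 and 9.17 across the mock arrays (log2 fold change -0.51 ± 0.07 SE, adjusted p by limma = 0.0175). GDF15 and ATF3 are also targets of other stress pathways. With anti-miR-21 replicate 2, anti-miR-21 replicate 3, mock replicate 2 or mock replicate 3 left out, none of the list passed in either direction, and without anti-miR-21 replicate 1 there were 5 that rose.

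Other targets were named after their values were seen. CCNG2, which encodes cyclin G2, a relative of CCNG1, had a representative at -0.35 ± 0.08 (SE, adjusted p by limma = 0.0923), and 2 dimmer probe sets of it fell, at -0.57 and -0.41 (adjusted p by limma = 0.0118 and 0.0343). One of these had 7.71, 7.63 and 7.80 across the anti-miR-21 arrays against 8.22, 8.32 and 8.31 across the mock arrays. PMAIP1, which encodes the death mediator NOXA, had 10.93, 11.29 and 11.29 across the anti-miR-21 arrays and 10.83, 10.69 and 10.64 across the mock arrays, without overlap, and did not pass (log2 fold change 0.46 ± 0.11 SE, adjusted p by limma = 0.0993). A second probe set of it was at 0.47 with overlapping groups. THBS1, the matrix protein thrombospondin 1, had a representative at 0.14 ± 0.16 (SE, adjusted p by limma = 0.696), and 1 dimmer probe set of it rose, at 0.29 (adjusted p by limma = 0.0407). DDIT4, an inhibitor of mTORC1 signalling, had 11.01, 12.19 and 12.17 across the anti-miR-21 arrays and 11.28, 10.64 and 10.85 across the mock arrays, and the groups overlapped (log2 fold change 0.86 ± 0.34 SE, adjusted p by limma = 0.251).

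Of 40 activators, modifiers and cofactors of p53, 35 were tested and none passed, with 4 at an unadjusted p under 0.05 in limma (11.4%, against 18.1% of all genes). The smallest p values belonged to TP53BP1, a DNA damage adaptor, AURKA, a mitotic kinase, TP53RK, a kinase of p53, and KMT5A, a histone and p53 methyltransferase. Their log2 fold changes were -0.21, -0.22, -0.16 and 0.20 (adjusted p by limma = 0.151, 0.156, 0.266 and 0.274). With suffixed probe sets left out the sign turned for AURKA, at 0.13, and for KMT5A, at -0.04. That AURKA probe set was far dimmer (means 6.29 in anti-miR-21 and 6.15 in mock cells) than its representative (13.35 and 13.58). Another bright probe set of AURKA was at -0.18. Further probe sets of KMT5A lay at 0.21 and -0.13. The damage kinase gene ATM showed a log2 fold change of -0.01 (adjusted p by limma = 0.980).

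Of 16 cell cycle genes that p53 represses through p21, all were tested and none passed on its representative. At an unadjusted p under 0.05 in limma, 6 were lower (37.5%, against 11.3% of all genes) and none higher (against 6.84%). In either direction the share of all genes was 18.1%. The difference in shares was not tested. The median log2 fold change was -0.02. The smallest p values were those of the phosphatase CDC25C, the cyclin CCNB1, the kinase PLK1 and the cyclin CCNA2, at -0.43, -0.22, -0.31 and -0.13 (adjusted p by limma = 0.0698, 0.0858, 0.153 and 0.237). A second probe set of CDC25C fell, by 0.74 on the log2 scale (adjusted p by limma = 0.0180). CDKN1A itself, as given above, was at 0.02.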

How the data were processed

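The authors deposited log2 expression values for 6 arrays. Per the submitters' processing notes the tool was GCRMA, a method that corrects background, normalizes between arrays and summarises probe sets; no source used here gives its version or settings. The deposited log2 values were used as they stand. Gene names came from the annotation of the array platform, with symbols checked against RefSeq (GRCh38.p14) by Entrez identifier. Of 41091 probe sets with 1 gene, 41037 matched and 0 symbols changed, while 1801 listed several genes and 11721 were unnamed, and these were not assigned.

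Probe sets with a mean of at least 4 over the 6 arrays were kept (22408). A gene was represented by its brightest kept probe set (10848 genes). Groups were compared with limma 3.58.1 in R 4.3.3 (lmFit, eBayes, two-sided, no covariate), with Benjamini-Hochberg adjustment over all kept probe sets. The fit was tested on simulated data with independent noise and planted changes of at least 1.5-fold. That simulation does not cover smaller changes or an array that deviates as a whole. Replicates are called biological in the labels, with no statement on separate cultures, so the spread behind each p-value may be technical. The number of arrays limits precision.

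The members, gene lists and tests were chosen with earlier results of these data known. All members are named, with every array's values for the 8 smallest p; of each further list, the 4 smallest p and all called genes are named. Alternatives covered the filter, scaling, variance model, choice of probe set, replicate block and each array left out. Replicate numbers showed no sign of pairing the arrays.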

Additional observations from a re-analysis of the deposited data

How the results depend on the processing

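No p53 pathway gene tested was called in 12 of the 13 alternative analyses, of which that without suffixed probe sets tested 19 of the 27. The exception was the fit without anti-miR-21 replicate 1, where 1 gene, GADD45A, and 5 probe sets passed upwards. These probe sets belonged to MDM4, GADD45A and GADD45B. In that fit 91 of 10848 genes passed upwards and 135 downwards, 2.08% in either direction. The share of all probe sets that passed in it is not given here, so the count of 5 has no like share beside it. Leave-one-out counts thus ranged from 0 to 1 genes and from 0 to 5 probe sets. Over all genes, the share called ranged from 0.295% with the replicate block to 3.27% with probe sets averaged. At each of these shares, that of 2.13% in the main fit included, no call among 27 genes says little about the set. The median log2 fold change of the set was 0.016 with probe sets averaged and 0.022 with suffixed probe sets left out, and ranged from -0.014 to 0.022 with 1 array left out. Among other p53 targets, higher calls numbered 1 without the filter, 1 without suffixed probe sets and 0 with the replicate block. Lower calls numbered 2 with probe sets averaged, 0 without suffixed probe sets and 0 with the replicate block. GDF15, ATF3 and ANKRA2 had suffixed probe sets only, so without these they were not tested and could not be called. With 1 array left out, higher calls ranged from 0 to 5 and lower calls from 0 to 1. Of the cell cycle genes repressed through p21, 1 was called lower with a minimum mean of 6, with trend and robust variance, by averaging probe sets and by leaving out mock replicate 1 (leave-one-out range 0 to 1). Apart from the genes that could not be tested, the cause of these changes was not tested.

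Log2 fold changes changed sign for some genes, none of which passed in either analysis. With probe sets averaged, PIDD1 was 0.0109, CYFIP2 0.0389 and RPS27L 0.0100. Without suffixed probe sets PIDD1 was 0.0248, AURKA 0.131 (against -0.22) and KMT5A -0.0386 (against 0.20). With each array left out in turn, the log2 fold change ranged from -0.199 to 0.0347 for TP53INP1, from -0.0202 to 0.0557 for CDKN1A, from -0.0134 to 0.0526 for PLK3 and from -0.0816 to 0.0109 for DDB2. The range was -0.0201 to 0.0689 for TIGAR, -0.0756 to 0.0029 for AEN, -0.0576 to 0.0711 for PIDD1 and -0.0295 to 0.0212 for CYFIP2. Without a change of sign it was 0.11 to 0.29 for MDM4, -0.21 to -0.08 for XPC, 0.07 to 0.21 for POLK, 0.06 to 0.18 for PLK2, -0.28 to -0.06 for SPATA18 and -0.26 to -0.11 for TRIAP1.

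Deviations from group means in same-numbered arrays correlated at -0.361, -0.266 and -0.002 over tested probe sets. For arrays of unlike number the correlations ran from -0.232 to 0.399. Same-numbered arrays thus showed no sign of pairing. Deviations from a mean of 3 arrays depend on one another, so this check cannot settle whether arrays shared a culture or day. The replicate block reduced calls over all genes to 16 higher and 16 lower, against 99 and 132 without it, and with it the adjusted p of GADD45A was 0.231. Calls over all genes numbered 161 higher and 194 lower with probe sets averaged. With 1 array left out they ranged from 14 to 91 higher and from 24 to 135 lower, the fewest without mock replicate 2. The number of the 27 genes at an unadjusted p under 0.05 in limma was 6, and ranged from 2 to 8 over the alternatives. The 13 dim probe sets below the filter were not tested, so no change in them was assessed.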
